A study of Arabidopsis thaliana with 8 samples.

Results

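SHR (AT4G37650), SCR (AT3G54220), SCL3 (AT1G50420), JKD (AT5G03150), MGP (AT1G03840) and NUC (AT5G44160) are Arabidopsis transcription factor genes that build the ground tissue of the root, the endodermis and cortex. They were taken by locus identifier, and all 6 were found among the 27444 protein-coding genes of the nuclear annotation. For each gene, the bases of the annotated gene span and of the 1000 bp before its start that lay inside called regions of 6 chromatin targets were counted. In root epidermal non-hair cells, H3K27me3 regions lay on SHR, JKD, MGP and NUC, over 44.0% to 68.4% of each gene, and none lay on SCR or SCL3. SCR and SCL3 had H3K27ac and H3K4me1 regions, and SHR had neither. JKD, MGP and NUC had short H3K27ac and H3K4me3 regions as well as H3K27me3, and MGP had H3K4me1 too.

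SHR is a protein of the GRAS family, named after GAI, RGA and SCR. It is made in the stele and moves outward into the endodermis, where SCR, another GRAS protein, holds it in the nucleus. Together they drive the division that separates endodermis from cortex, and they activate genes that include SCL3, MGP and NUC. SCL3, also a GRAS protein, promotes gibberellin responses in the ground tissue. JKD, MGP and NUC are zinc finger proteins of the INDETERMINATE DOMAIN (IDD) family, also called BIRD proteins. They bind DNA in complexes with SHR and SCR, and JKD helps to keep SHR in the nucleus. None of these genes is known as a gene specific to non-hair cells, although JKD acts from the ground tissue on the pattern of the epidermis.

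H3K4me3 and H3K27ac are histone marks usually found near the starts of active genes, and H3K4me1 lies in the bodies of active plant genes. H3K27me3 is placed by Polycomb repressive complex PRC2 on silent developmental genes. H2A.Z, a variant form of H2A, occurs near gene starts and, in plants, across the bodies of many inducible or silent genes. H3 itself reports where nucleosomes were recovered.

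The regions came from chromatin immunoprecipitation and sequencing with antibodies to H3K4me1, H3K4me3, H3K27ac, H3K27me3, H2A.Z and H3, with 1 library per target. The plants were of the Col-0 background and carried a biotin ligase expressed throughout (ACT2p:BirA) and the nuclear tag NTF, driven by the GLABRA2 promoter, so that tagged nuclei could be pulled out on streptavidin beads (the INTACT method). All libraries came from plants 10 days after germination and from 1.25 cm lengths of mature root, without the tip or lateral roots, with 3 g of tissue for each sample. The other 2 of 8 samples were inputs, which were not analysed here. Each sample was pooled root tissue, and the ground tissue and the dividing cells in which these 6 genes act were not what the tag selected. There were 14717 (H3K4me3) to 36146 (H3K27ac) regions per library, the depth is unknown, and the deposited lists held positions and no scores. There were no replicates, so no difference carries a test or an error, and the shares of all genes given beside the values are what they are read against.

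A gene is called marked where at least 150 bp of it lay inside regions of a target, which is less than the smallest region of any library. The non-hair markers chosen for this work, GL2, MYB66 (WEREWOLF), TTG1 and CPC, were all marked by H3K27ac and by H3K4me3, and 1 of the 4, GL2, was marked by H3K27me3. On GL2, whose promoter drove the tag, H3K27me3 covered the most, 1311 bp (29.2%). H3K4me1 covered 942 bp of it (21.0%), H3K27ac 412 bp (9.19%) and H3K4me3 378 bp (8.43%). The 5 root hair markers were all marked by H3K27me3, and 2 of them by H3K27ac. Of the 6 endodermis markers, 5 were marked by H3K27me3, 3 by H3K27ac and 0 by H3K4me3. Over all protein-coding genes these shares were 42.8% for H3K27me3, 66.4% for H3K27ac and 39.0% for H3K4me3. These lists do not measure the purity of the nuclei.

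SHR spans chr4:17691687-17693859 on the plus strand (TAIR10) and has 1 exon. SCR lies at chr3:20069987-20072878 on the plus strand, with 2 exons, and its 3' end is 149 bp from SUA. SCL3 lies at chr1:18677694-18680300 on the minus strand, has 2 exons with its intron inside the 5' UTR, and ends 41 bp from AT1G50410. JKD spans chr5:745421-749028 on the plus strand with 4 exons. MGP spans chr1:967470-970334 on the minus strand with 3 exons and 2 annotated transcripts. NUC spans chr5:17772856-17775749 on the plus strand, with 3 exons and 2 transcripts, and its nearest gene is 4456 bp away. No upstream window of 1000 bp reached another gene, since the nearest upstream neighbours were 1372 bp (SCR) to 7427 bp (NUC) away. Translated from the genome, MGP and NUC were the closest pair, with 74.7% identical residues over 451 aligned, against 51.7% for JKD and MGP and 49.8% for JKD and NUC. The GRAS proteins were 31.9% (SHR and SCR) to 36.5% (SCR and SCL3) identical.

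Positions below are counted along the gene's strand from its annotated start, base 0, with negative numbers before it. The 250 bases before the start of MGP (chr1:970335-970584, minus strand) are shown because an H3K27me3 region reaches across the start there. The last 105 bases lie inside that region and are in capitals.
MGP: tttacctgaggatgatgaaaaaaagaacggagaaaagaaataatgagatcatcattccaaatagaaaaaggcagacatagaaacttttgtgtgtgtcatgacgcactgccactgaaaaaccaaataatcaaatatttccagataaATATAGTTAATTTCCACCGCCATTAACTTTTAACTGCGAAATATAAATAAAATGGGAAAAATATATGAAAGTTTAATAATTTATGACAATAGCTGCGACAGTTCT

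The first coding block of JKD (chr5:745849-746035, plus strand) is shown because H3K4me3, H3K27ac and H3K27me3 regions met there. The 118 bases inside regions of all these targets are in capitals. A stretch of SHR coding sequence (chr4:17692117-17692327, plus strand) is shown because H3, H2A.Z and H3K27me3 regions met there, as they also did upstream of the gene. It is the whole H3 region, and the 205 bases also inside H3K27me3 and H2A.Z regions are in capitals.
JKD: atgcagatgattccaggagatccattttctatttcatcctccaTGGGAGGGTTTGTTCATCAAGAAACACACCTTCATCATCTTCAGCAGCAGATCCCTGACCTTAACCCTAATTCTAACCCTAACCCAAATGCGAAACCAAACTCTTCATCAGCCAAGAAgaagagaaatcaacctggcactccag
SHR: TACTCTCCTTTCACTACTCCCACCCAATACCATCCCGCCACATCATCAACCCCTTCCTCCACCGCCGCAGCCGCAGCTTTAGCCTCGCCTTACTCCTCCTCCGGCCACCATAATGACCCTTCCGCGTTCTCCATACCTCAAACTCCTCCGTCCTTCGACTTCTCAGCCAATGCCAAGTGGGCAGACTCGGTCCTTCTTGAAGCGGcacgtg

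For the genes without H3K27me3, the sequences shown are regions of H3K27ac, in capitals throughout. That of SCR (chr3:20069174-20069352, plus strand) is the only H3K27ac region found in any of the 6 upstream windows. That of SCL3 (chr1:18679050-18679280, minus strand) lies inside the coding sequence.
SCR: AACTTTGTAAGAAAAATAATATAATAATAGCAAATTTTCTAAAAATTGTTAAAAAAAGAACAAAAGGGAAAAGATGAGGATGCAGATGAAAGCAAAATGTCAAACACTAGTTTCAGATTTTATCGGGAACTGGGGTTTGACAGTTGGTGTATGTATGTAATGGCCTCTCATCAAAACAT
SCL3: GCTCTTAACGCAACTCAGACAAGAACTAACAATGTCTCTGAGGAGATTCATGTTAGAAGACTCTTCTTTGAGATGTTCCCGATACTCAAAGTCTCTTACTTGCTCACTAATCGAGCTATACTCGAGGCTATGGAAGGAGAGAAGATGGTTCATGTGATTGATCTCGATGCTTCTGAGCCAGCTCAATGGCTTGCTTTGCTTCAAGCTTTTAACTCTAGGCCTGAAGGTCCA

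**Figure D1:**
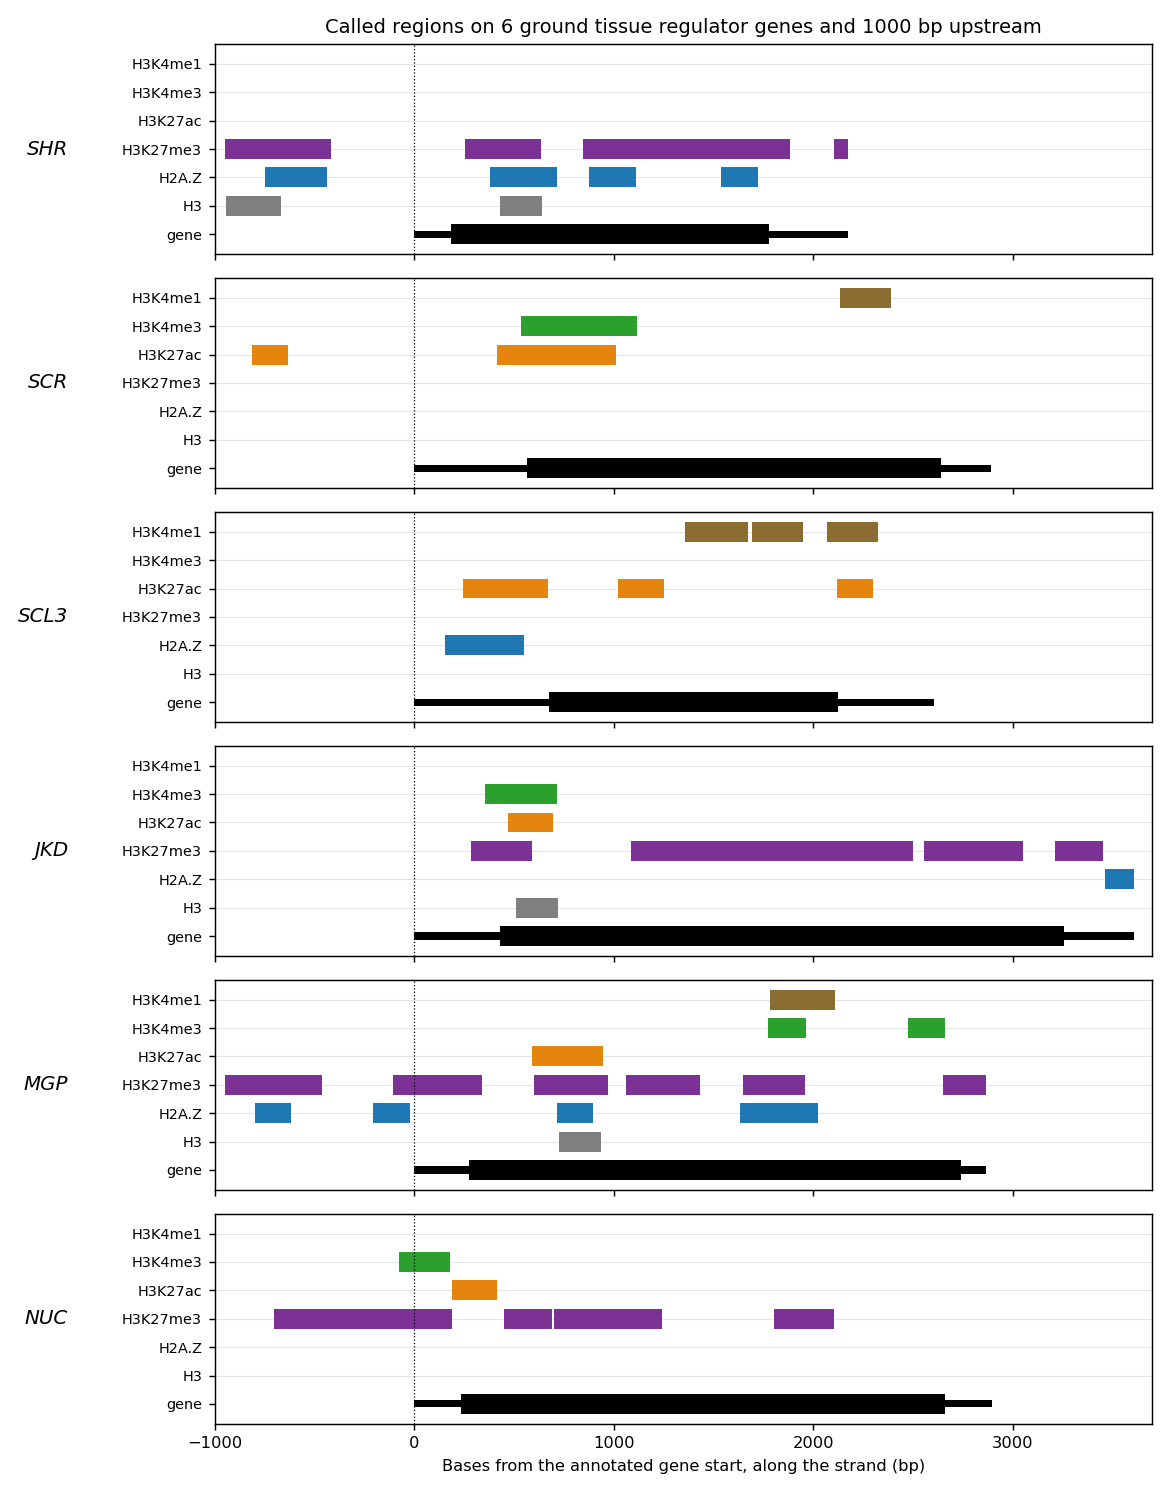
Called regions of 6 targets on each gene and its 1000 bp upstream window, by bases from the annotated start along the strand; bars are regions, cut at the ends of the window, and the black line is the gene, thick from the first to the last coding base. H3K27me3 fills much of SHR, JKD, MGP and NUC, and SCR and SCL3 have none.

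SHR, the mobile regulator, had 1486 bp of its gene inside H3K27me3 regions, 749 bp inside H2A.Z and 211 bp inside H3. It had no base inside H3K4me1, H3K4me3 or H3K27ac. The H3K27me3 share, 68.4% of the gene, was reached by 3.98% of protein-coding genes, and the H2A.Z share of 34.5% by 7.68%. H3K27me3 took up 82.3% of the coding sequence and 43.8% of the 3' UTR, but none of the 5' UTR. Its regions ran from 255 to 634, from 846 to 1881 and from 2103 to 2343, past the gene's end. Before the start, H3K27me3 lay from -951 to -421 (531 bp), H2A.Z from -750 to -440 (311 bp) and H3 from -945 to -670 (276 bp). No region of any target lay on the start itself or up to base 255, while H3K27me3 and H2A.Z lay together on both sides of that gap. Of the H2A.Z bases on the gene, 671 bp or 89.6% were also inside H3K27me3. The nearest H3K27ac regions were 4709 bp upstream and 1507 bp downstream.

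SCR, which retains SHR in the endodermal nucleus, had 578 bp inside H3K4me3, 600 bp inside H3K27ac and 254 bp inside H3K4me1, and none inside H3K27me3, H2A.Z or H3. The H3K4me3 share of 20.0% was reached by 9.03% of genes, whereas the H3K27ac share of 20.7% was reached by 31.4%. Both lay as 1 region each over the end of the 5' UTR and the start of the coding sequence, H3K27ac from 412 to 1011 and H3K4me3 from 536 to 1113. They shared 476 bp, which is 82.4% of the H3K4me3 bases. H3K4me1 lay further in, as a region of the smallest size from 2133 to 2386, over the intron's edge and coding sequence. A second H3K27ac region, the 179 bp printed above, ran from -813 to -635. The nearest H3K27me3 regions were 17133 bp upstream and 466 bp downstream, the nearer one beyond the end of the gene and past the start of SUA.

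SCL3, a target of SHR and SCR, had 834 bp inside H3K27ac, 826 bp inside H3K4me1 and 395 bp inside H2A.Z, and none inside H3K4me3, H3K27me3 or H3. The shares of 32.0% for H3K27ac and 31.7% for H3K4me1 were reached by 15.5% and 16.7% of genes. H2A.Z ran from 155 to 549, over the 5' UTR and the whole of its intron, and 306 bp of it were inside the first H3K27ac region, from 244 to 667. The other H3K27ac regions lay in the coding sequence, from 1020 to 1250, and at the 3' UTR, from 2120 to 2298. H3K4me1 formed 3 regions between 1355 and 2322, over 43.3% of the coding sequence and 41.2% of the 3' UTR. The regions of SCL3 were thus ordered along its length, with H2A.Z at the front and H3K4me1 at the back. The H3K4me1 regions from 1693 to 1946 and from 2069 to 2322 were of the smallest size. Without them H3K4me1 covered 12.2% of the gene, from 1355 to 1672, and no longer reached the back. The upstream window held no region of any target, and the nearest H3K27me3 was 5750 bp upstream and 14795 bp downstream.

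JKD, the zinc finger protein that helps to hold SHR in the nucleus, had 2456 bp inside H3K27me3, the most bases of the 6 genes. That was 68.1% of the gene, a share reached by 4.04% of genes. H3K27me3 covered 81.4% of the coding sequence, 67.5% of the introns and 55.1% of the 3' UTR, and its longest region ran from 1087 to 2501. The front of the gene was different. H3K4me3 from 356 to 715 (360 bp), H3K27ac from 471 to 693 (223 bp) and H3 from 508 to 718 (211 bp) lay over the first coding block, and so did the end of an H3K27me3 region from 286 to 588. All of the H3K27ac bases were inside H3K4me3, and 233 bp of the H3K4me3 were inside H3K27me3. H2A.Z reached only 148 bp into the 3' UTR, just short of the 150 bp that mark a gene. No region of any target lay in the 1000 bp before the start.

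MGP, a BIRD protein bound by SHR and SCR complexes and a target of SHR, was the only gene of the 6 marked by every target. It had 1606 bp inside H3K27me3 (56.1% of the gene, a share reached by 6.96% of genes), 570 bp inside H2A.Z, 378 bp inside H3K4me3, 358 bp inside H3K27ac, 323 bp inside H3K4me1 and 211 bp inside H3. H3K27me3 came in 5 short regions on the gene, among them one across the start, from -105 to 338, that took in the whole 5' UTR. H3K27ac, from 589 to 946, shared 345 bp or 96.4% of its bases with H3K27me3. The H3K4me3 regions were both of the smallest size and lay in the coding sequence towards the 3' end, at 1772 to 1960 and 2473 to 2661. No H3K4me3 region lay near its start. Upstream, H3K27me3 covered 590 bp, a value reached by 3.34% of genes, and H2A.Z 366 bp, a value reached by 4.91%. Both upstream H2A.Z regions were of the smallest size, 183 bp.

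NUC, the closest relative of MGP, had 1273 bp inside H3K27me3 (44.0% of the gene, a share reached by 10.7% of genes), 229 bp inside H3K27ac and 177 bp inside H3K4me3. It had none inside H3K4me1, H2A.Z or H3. Its H3K27me3 was most extensive before the start, where 706 bp of the 1000 bp were covered, a value reached by 1.79% of genes. The region that crosses the start ran from -702 to 190, and an H3K4me3 region from -76 to 176 lay wholly inside it. H3K27ac followed from 187 to 415 and shared 4 bp with H3K27me3. Within the gene, H3K27me3 covered 81.3% of the 5' UTR, 50.7% of the coding sequence and 6.73% of the 594 bp that are intron in every transcript. A further 406 bp, noncoding exon between the first and last coding base, belong to none of these parts. They held the rest of the gene's H3K27me3. MGP and NUC thus both had H3K27me3 across the start, but MGP had H2A.Z regions before and inside the gene and NUC had none closer than 2702 bp. Without regions of the smallest size, MGP kept H2A.Z inside the gene only, over 13.5% of it.

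**Figure D2:**
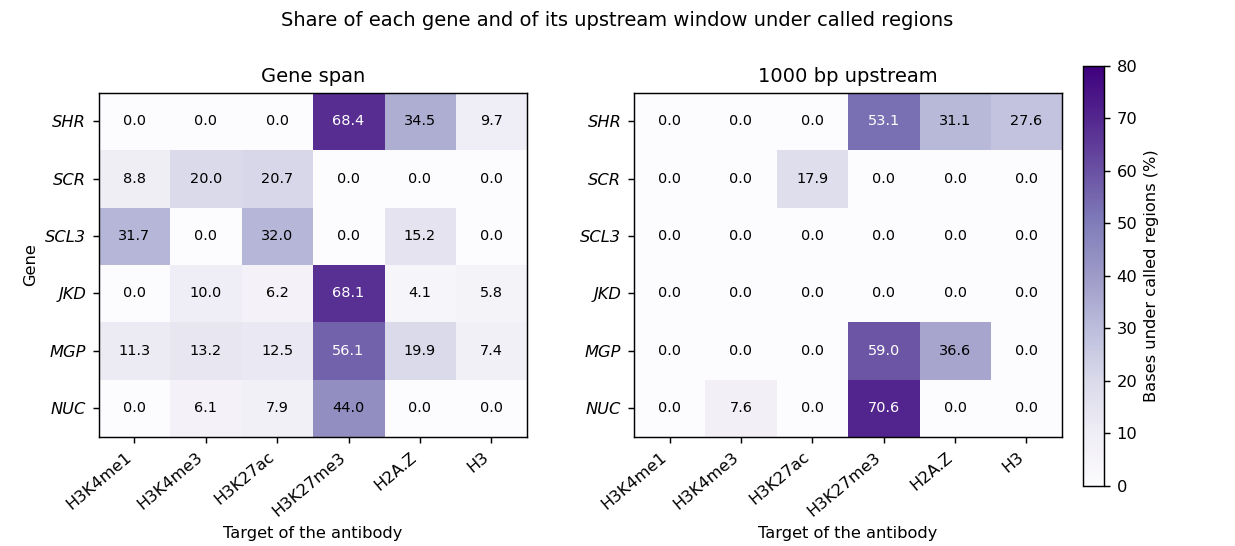
Percent of bases inside called regions, for 6 genes (rows) and 6 targets (columns), on the gene span (left) and the 1000 bp upstream (right); darker is more. H3K27me3 reaches 68.4% of SHR and 68.1% of JKD, and SCR and SCL3 have 0 on both panels.

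Set against all protein-coding genes, the counts of marked genes were close to the background for most targets. H3K4me1 marked 3 of 6 gene spans, against 52.5% of all genes, and H2A.Z also 3, against 53.9%. H3 marked 3, against 43.4%. H3K27ac marked 5 of 6, against 66.4%, and H3K4me3 4, against 39.0%. H3K27me3 marked 4, against 42.8%. With 6 genes these differences in count amount to less than 2 genes, and they are not read as a result. The H3 regions on SHR, JKD and MGP were 211 bp each, the smallest size of that library, so without regions of the smallest size H3 marked 0. Of those 211 bp, 205 on SHR, 81 on JKD and 211 on MGP were also inside H3K27me3. Genes as long as these, the 8552 of 2173 to 3608 bp, were marked in 72.8% (H3K4me1), 50.7% (H3K4me3), 80.8% (H3K27ac), 45.7% (H3K27me3), 60.4% (H2A.Z) and 54.1% (H3) of cases.

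The shares covered were also compared by their medians. The median share of the gene inside H3K27me3 was 50.0% over the 6 genes and 0% over all protein-coding genes. The first lies between NUC (44.0%) and MGP (56.1%), with SCR and SCL3 at 0%. Most genes had no H3K27me3, so the second is 0% however much the other genes had. The medians thus follow the counts above, and amounts among marked genes alone were not compared. For H3K27ac the medians were 10.2% and 11.9%, and for H3K4me1 4.39% and 9.14%. They were 8.05% and 0% for H3K4me3, 9.63% and 5.92% for H2A.Z, and 2.92% and 0% for H3. Over genes as long as these, the medians were 0% for H3K27me3, 15.5% for H3K27ac, 15.7% for H3K4me1, 5.39% for H3K4me3, 7.01% for H2A.Z and 6.49% for H3, so for H3 the 6 genes lay above all genes and below those of their length. Upstream, H3K27me3 marked 3 of 6 windows, those of SHR, MGP and NUC, against 22.4% of all genes. H2A.Z marked 2, against 23.0%, and H3 marked 1, against 11.3%. H3K27ac marked 1, against 25.0%, and H3K4me1 and H3K4me3 marked 0, against 12.3% and 9.34%.

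The 6 genes fell into 3 combinations of marks. JKD, MGP and NUC were marked by H3K27me3, H3K27ac and H3K4me3 together, a combination held by 15.0% of protein-coding genes. SHR was marked by H3K27me3 and by neither of the others, as were 13.6% of genes. SCR and SCL3 were marked by H3K27ac without H3K27me3, as were 39.0%. Among the 6, the first combination held the IDD members and the others held the GRAS members, of which SHR was the one with H3K27me3. The other IDD and GRAS genes, described below, were not split in this way. The GRAS genes HAM4 and SCL8 were marked by all 3 targets, and the IDD gene AT3G45260 by H3K27me3 and neither of the others. On the IDD members the combination of all 3 rested on short regions: with a minimum of 300 bp JKD and NUC lost it, and without regions of the smallest size MGP did. On JKD, 233 bp inside H3K27me3 were also inside H3K27ac or H3K4me3, on MGP 542 bp and on NUC 181 bp. The bases of H3K27me3 with neither were 1486 on SHR, 2223 on JKD, 1064 on MGP and 1092 on NUC. Each library pooled many nuclei, so marks on the same nucleosome and marks on different nuclei cannot be told apart where regions of a pair of targets share bases.

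**Figure D3:**
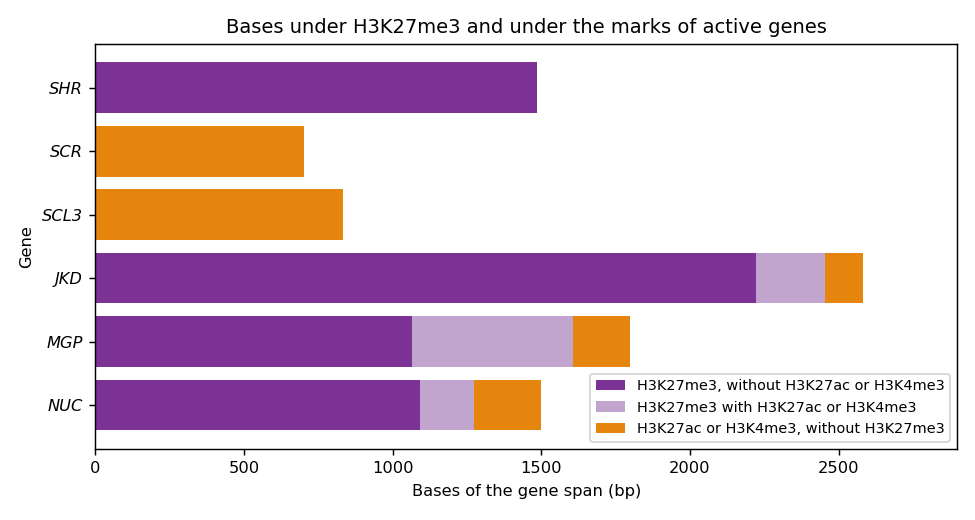
Bases of each gene span inside H3K27me3 without H3K27ac or H3K4me3, inside H3K27me3 with either of them, and inside either without H3K27me3 (horizontal axis, bp). Regions of H3K4me1, H2A.Z and H3 were not considered here, and bases of any kind may lie in them too. SHR has 1486 bp of the first kind only, SCR (702 bp) and SCL3 (834 bp) have the last kind only, and JKD, MGP and NUC have all 3.

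H3K27me3 regions of these genes lay close together, so they were also joined over gaps of up to 500 bp. The stretch over JKD was then 3165 bp long, from 286 to 3450, inside the gene at both ends. That over MGP measured 2905 bp, from -947 to 1957, and that over NUC 2789 bp, from -1550 to 1238, both reaching across the start. On SHR it measured 2476 bp, from 255 to 2730, and left out the upstream region. Among all 17982 such stretches, whose median was 342.5 bp, 2.04% were as long as that of JKD or longer, 2.67% as that of MGP, 3.02% as that of NUC and 4.11% as that of SHR. MGP and NUC each had a further, shorter stretch, of 667 bp and 302 bp. None of these stretches touched another annotated gene. Joined over gaps of at most 200 bp, the longest stretch was shorter on all 4 genes, with 2364 bp on JKD, 1036 bp on SHR, 893 bp on NUC and 831 bp on MGP. Joined over gaps of up to 1000 bp, the stretch of SHR grew to 6177 bp and touched the noncoding AT4G09515 and AT4G09525, and that of MGP grew to 5101 bp and touched AT1G03830.

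The wider IDD family had H3K27me3 on every gene listed. H3K27me3 marked 13 of the 13 other IDD genes and 42.8% of protein-coding genes; in the IDD genes it had a median of 59.5% of the gene and a range of 7.64% to 90.5%. H3K27ac marked 7 of them (53.8%, against 66.4% of all genes) and H3K4me3 also 7 (53.8%, against 39.0%). H3K4me1 marked 6 (46.2%, against 52.5%), H2A.Z 9 (69.2%, against 53.9%) and H3 5 (38.5%, against 43.4%). Of all genes of 2173 to 3608 bp, H3K27ac marked 80.8%, H3K4me1 72.8%, H2A.Z 60.4%, H3 54.1%, H3K4me3 50.7% and H3K27me3 45.7%. IDD4 (3659 bp) and IDD5 (5407 bp) are longer than that. Without regions of the smallest size, H3K27me3 marked 12 of the 13 IDD genes, against 26.5% of all genes, H3K27ac 4, against 53.4%, and H3K4me3 1, against 23.3%. IDD14, a gene linked to starch metabolism and lateral organ gravitropism, had the largest H3K27me3 share, 2435 bp or 90.5%. IDD1, a regulator of seed maturation, stood at the other end with 7.64% H3K27me3 and the largest shares of H3K4me3 (1207 bp, 38.3%), H3K27ac (1113 bp, 35.3%) and H3 (482 bp, 15.3%). AT1G14580 led for H3K4me1 with 925 bp (28.5%) and AT3G45260 for H2A.Z with 652 bp (26.6%). JKD at 68.1%, MGP at 56.1% and NUC at 44.0% thus lay inside the family's range, on both sides of its median.

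The other GRAS genes had shares of marked genes close to those of genes as long as the 6 for H3K27ac and H3K27me3. The shares were lower for H3K4me1, H2A.Z and H3, and higher for H3K4me3. Of 29, H3K27ac marked 24 (82.8%, against 66.4% of all genes and 80.8% of those as long), and H3K27me3 marked 14 (48.3%, against 42.8% and 45.7%). The median share of the gene was 30.6% inside H3K27ac, against 11.9% over all genes, and 0% inside H3K27me3, as over all genes. H3K4me3 marked 17 (58.6%, against 39.0% of all genes and 50.7% of those as long) and H3K4me1 13 (44.8%, against 52.5% and 72.8%). H2A.Z marked 13 (44.8%, against 53.9% and 60.4%) and H3 12 (41.4%, against 43.4% and 54.1%). Some GRAS genes, such as AT4G08250 at 1452 bp, were shorter than that range of 2173 to 3608 bp. Without regions of the smallest size the H3K27me3 count was 6, against 26.5% of all genes. Between these marks, 4 of 29 GRAS genes had more bases inside H3K27me3 and 22 more inside H3K27ac, whereas 11 of the 13 IDD genes had more inside H3K27me3. Over all protein-coding genes, 7772 had more inside H3K27me3 and 15260 more inside H3K27ac. HAM4, a relative of the HAIRY MERISTEM genes, led for H3K27me3 with 1181 bp (62.5%), less than the 68.4% of SHR. SCL8 led for H3K27ac with 1647 bp (70.8%), HAM2, a meristem regulator, for H3K4me3 with 1195 bp (49.3%), SCL1 for H3K4me1 with 1257 bp (40.5%), AT1G63100 for H2A.Z with 1115 bp (36.4%) and SCL21 for H3 with 623 bp (27.8%). AT5G41920, the listed GRAS protein most like SCR (57.9% identity over 373 residues), had 775 bp of H3K27ac, 378 bp of H3K4me3 and no H3K27me3, as SCR did. Unlike SCR it had 634 bp of H2A.Z.

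**Figure D4:**
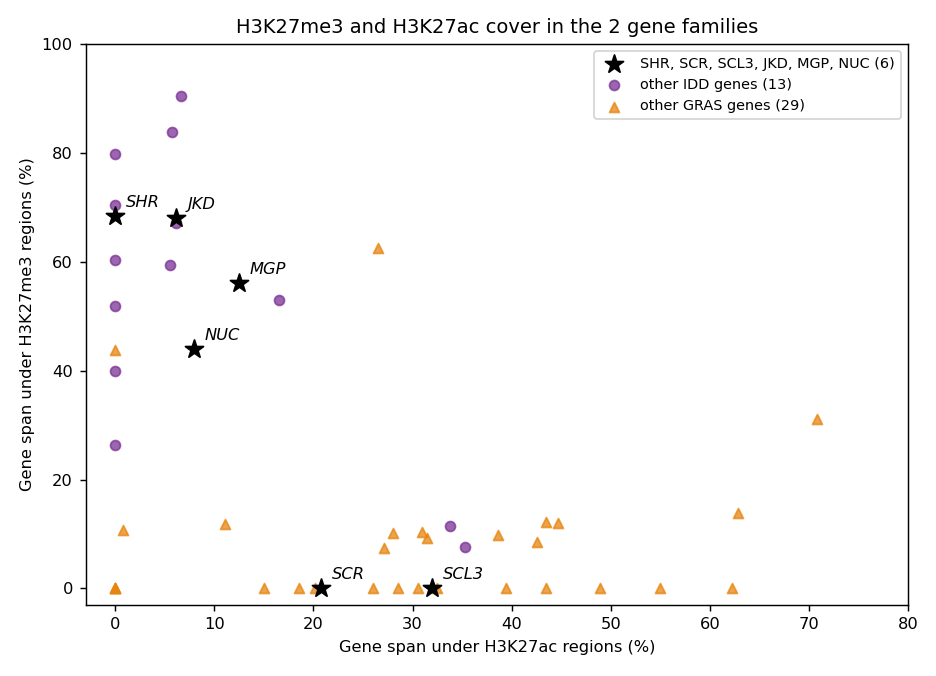
Percent of the gene span inside H3K27ac (horizontal) and H3K27me3 (vertical) regions, 1 point per gene, for the 6 genes (stars), 13 other IDD genes (circles) and 29 other GRAS genes (triangles). JKD, MGP and NUC sit between 44.0% and 68.1% on the vertical axis, within the range of the other IDD genes (7.64% to 90.5%). Of the GRAS members, SHR sits at 68.4%, above the highest other GRAS gene (62.5%). SCR and SCL3 sit at 0%, the median of the other GRAS genes.

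Genes that act with these regulators were listed as a pathway, and its 16 protein-coding members were more mixed. H3K27ac marked 15 (93.8%, against 66.4% of all genes), H2A.Z 12 (75%, against 53.9%) and H3K27me3 11 (68.8%, against 42.8%). H3 marked 11 (68.8%, against 43.4%), H3K4me1 10 (62.5%, against 52.5%) and H3K4me3 8 (50.0%, against 39.0%). Of all genes of 2173 to 3608 bp, H3K27ac marked 80.8%, H3K4me1 72.8%, H2A.Z 60.4%, H3 54.1%, H3K4me3 50.7% and H3K27me3 45.7%. The pathway genes ran from 1121 bp (SLY2) to 6214 bp (SPY), so they are not matched to that length. Without regions of the smallest size H3K27me3 marked 7 pathway genes, against 26.5% of all genes. GAI, RGA1 and AT5G41920 are GRAS genes and stand in both lists. MYB36, which SCR activates and which switches on Casparian strip genes in the endodermis, had the largest H3K27me3 share, 1500 bp or 80.4%, together with 687 bp of H3K4me1 and 293 bp of H3K27ac. CYCD6;1, the D-type cyclin that SHR and SCR induce for the ground tissue division, had 602 bp of H2A.Z, 329 bp of H3, 254 bp of H3K4me1 and no H3K27ac. Its H3K27me3 came to 241 bp, the size of the smallest region of that library. GAI, a DELLA repressor of gibberellin responses whose action SCL3 counters, led for H3K27ac with 1529 bp (62.8%) and had 339 bp of H3K27me3 (13.9%). Its homologue RGA1 had 1446 bp of H3K27ac (62.3%) and no H3K27me3. SIEL, an endosomal protein that binds SHR and aids its movement, led for H3K4me1 with 2577 bp (60.2%). AT5G41920 led for H3K4me3 (21.2%) and H2A.Z (35.6%), and the cell cycle kinase CDKB1;2 for H3 with 321 bp (19.9%). WOX5, a gene of the quiescent centre, had 872 bp of H3K27me3 (75.1%). It also had 321 bp of H2A.Z (27.6%), 246 bp of H3K27ac (21.2%) and 211 bp of H3 (18.2%).

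To find the genes most like each of the 6, distances were taken over 12 percentages, the shares of the gene and of the upstream window inside each target, and are in percentage points. SCL3 had the closest match, the RNA helicase gene AT2G35920 at 4.05, followed by AT5G01610 at 4.62. For JKD, the basic helix-loop-helix gene AT4G29100 was at 6.10 and AT1G22570, of the major facilitator superfamily, at 9.74. SCR was nearest to AT1G17830 at 6.76 and to the phospholipase C gene PLC4 at 7.87. NUC was nearest to LCR67 at 12.6 and AT5G19710 at 12.9, although, unlike NUC, these had no H3K27ac or H3K4me3 on the gene. SHR was nearest to RL3 at 17.9 and AT5G17080 at 19.2. MGP had the most distant neighbours, the auxin carrier gene PIN6 and the MADS box gene AGL12, both at 24.5. Unlike MGP, these had no H3K27ac or H3K4me1 on the gene. Among the 6 themselves the closest pairs were SCR and SCL3 at 40.0, SHR and MGP at 40.7 and MGP and NUC at 48.2. These distances were longer than those of each gene to its nearest genes named here. The nearest genes were picked from all protein-coding genes, so this outcome was largely fixed beforehand and is not read as a result.

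The upstream windows were searched on both strands for letters tied to Polycomb recruitment in plants, AAACCCTA (a telobox) and GAGAGA, and for TTTGTC, the core bound by maize ID1, the founding IDD protein. AAACCCTA was in 0 of the 6 windows and in 12.4% of the windows of all genes. GAGAGA was in 4 of 6 (57.1% of all windows), with 6 matches each before SHR and SCL3, a number that 3.20% of windows reached. TTTGTC was in 4 of 6 (63.7% of all windows), and SCL3 had 5 matches, which 0.707% of windows reached. Inside the 4 genes with H3K27me3, JKD held 4 matches of AAACCCTA, 3 of them under H3K27me3, SHR held 2, with 1 under it, NUC held 1, with 0 under it, and MGP held 0. Of GAGAGA, 8 of 10 matches in NUC, 4 of 5 in JKD, 2 of 3 in SHR and 1 of 1 in MGP were under H3K27me3. Of TTTGTC, 3 of 6 in NUC, 2 of 2 in JKD, 1 of 3 in SHR and 2 of 2 in MGP were. H3K27me3 covered 44.0% of NUC, 68.1% of JKD, 68.4% of SHR and 56.1% of MGP.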

How the data were processed

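The deposited lists of 6 libraries, 1 per target, held the chromosome, start and end of each region in base pairs, and no other column. The submitters' processing notes name TAIR10 and the tools HOMER, Bowtie2, deepTools 2.0 and SAMtools 0.1.19. Settings, threshold and control of the region caller were not given in the sources used here, and depth is unknown. H3K27me3 had an input of its own. Starts were read as counted from 0.

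Genes and sequences came from RefSeq TAIR10.1, whose nuclear chromosomes have the TAIR10 coordinates; every nuclear region ended within them. Mitochondrial regions were left out. Overlapping regions of a target were merged and counted with Python 3.11.15 and numpy 2.4.6, checked on simulated regions; proteins were translated and aligned locally with Biopython 1.88 (BLOSUM scoring, gap opening 11). A gene was marked from 150 bp. Members and lists were chosen with earlier results of these data known. Named were the 6 members, their neighbouring genes, for each target the list gene with the largest share covered, the 2 nearest genes by profile, and the cell type markers; CYCD6;1, RGA1, WOX5 and, beside SCR, AT5G41920 were added after their values were seen. The microRNA genes MIR165a and MIR166b of the pathway list are not protein-coding and were not counted. No test was possible with 1 library per target. Alternatives changed the bases that mark a gene, the regions used, the joining of regions, the gene's extent and the upstream window.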

Additional observations from a re-analysis of the deposited data

How the results depend on the processing

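No paired analysis was possible because each target had 1 library. Of the counts recomputed under alternatives, 103 stayed within 1.5 times the reported value and 35 did not. This tally is a loose measure of stability. A count of 0 cannot fall under a stricter rule, and H3K4me1 upstream was 0 in every setting. A fall from 3 to 2 members, as for H3K4me1 on the gene span at 300 bp, was counted as within that limit. H3K27me3 marked 4 gene spans under each alternative, except 3 with only regions of at least 500 bp. On the gene span, only regions of at least 500 bp left 0 for H3K4me1, 1 for H3K4me3, 1 for H3K27ac, 0 for H2A.Z and 0 for H3. A minimum of 10% of the gene left 2 for H3K4me3, 3 for H3K27ac and 0 for H3, a minimum of 300 bp left 3 for H3K27ac and 0 for H3, and leaving out regions of the smallest size left 0 for H3. Upstream, a minimum of 1 bp gave 1 for H3K4me3. H3K27ac fell to 0 at 200 bp, at 300 bp, without regions of the smallest size, with regions of at least 500 bp and in a 500 bp window. H3 was 0 at 300 bp, with regions of at least 500 bp and in a 500 bp window. H2A.Z was 1 without regions of the smallest size, 0 with regions of at least 500 bp and 1 in a 500 bp window, where H3K27me3 was also 1. Without regions of the smallest size, the IDD list had 12 genes marked by H3K27me3, 2 by H3K4me1, 1 by H3K4me3, 4 by H3K27ac and 2 by H3. The GRAS list then had 11 for H3K4me3, 6 for H3K27me3, 7 for H2A.Z and 6 for H3, and the pathway list 3 for H3K4me3, 7 for H3K27me3 and 5 for H3. With gaps of at most 200 bp in place of 500 bp, the summed H3K27me3 stretches were 2254 bp, against 3572 bp, on MGP and 1987 bp, against 3091 bp, on NUC. The cause of these changes was not tested. With unknown depth, a missing region is not evidence that a mark was absent.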
